A study of Homo sapiens with 6 samples.

Results

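The genes described are 9 members of the epidermal growth factor (EGF) signalling system, chosen by name: the ligands HBEGF, AREG, EREG, TGFA and NRG1, the receptors EGFR, ERBB2 and ERBB3, and the feedback inhibitor ERRFI1. All 9 were found among the 20289 genes of the table. Their mRNA was measured by RNA sequencing in the RKO line, which was established from a human colorectal cancer and is known for an activating BRAF mutation. Cells carried a short hairpin RNA against TRMT6 (shTRMT6, 3 libraries) or a control hairpin (shControl, 3 libraries). TRMT6 encodes the RNA-binding subunit of the tRNA 1-methyladenosine methyltransferase, whose catalytic subunit is TRMT61A, and the study asks what its knockdown does to expression. All 6 libraries come from this 1 line, the hairpin sequence is not given in the sources used here, and the labels do not state whether replicates were grown separately. The p-values thus reflect only how far these libraries differ among themselves, possibly for technical reasons.

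EGF family ligands are made as membrane-anchored precursors that metalloproteases cut loose. They bind ERBB receptors, which pair with each other and signal through RAS to ERK and through PI3-kinase to AKT. ERBB2 has no known soluble ligand and acts as the preferred partner, whereas ERBB3 binds neuregulins, has little kinase activity of its own and recruits PI3-kinase. In the colon the pathway drives epithelial renewal, and antibodies against EGFR are used in some colorectal cancers.

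The hairpin worked as labelled. TRMT6 read 1.58, 1.73 and 1.09 FPKM (the authors' unit, fragments divided by gene length and sequencing depth) in shTRMT6 replicates 1 to 3, against 14.43, 17.96 and 16.85 FPKM in shControl. Depth, estimated from the step between low values, was about 18 to 20 M (mega) fragments in shTRMT6 libraries and 21.2 to 28.2 M in shControl libraries. Of the colorectal markers EPCAM, KRT8, KRT18 and CDX2 were present in all 6 libraries, whereas CDH1, KRT19, KRT20 and VIL1 were listed at 0 in all. EPCAM and KRT18 were higher in shTRMT6 (log2 fold change 0.50 and 0.66, adjusted p = 0.0282 and 0.00053 by limma), KRT8 and CDX2 did not pass, and the part of this in the results below was not tested. Of 9 markers of fibroblasts, immune and endothelial cells, 8 stayed at or under 0.65 FPKM, the highest being COL1A1 in shControl replicate 3. The fibroblast markers COL1A2 and DCN were also highest in that library, at 0.34 and 0.20 FPKM. What this means for the results below was not tested. The marker above 0.65 FPKM was CD68, a lysosomal protein known from macrophages, at 738.4 to 996.4 FPKM in shTRMT6 and 677 to 810.5 FPKM in shControl. In bulk RNA, fewer cells expressing a gene and less RNA per cell cannot be told apart.

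Of the 9 members, 6 averaged 1 FPKM or more across libraries and were tested with limma on log2(FPKM + 1), with Benjamini-Hochberg adjustment over all 10592 genes tested and a threshold of 0.05. HBEGF, ERBB3 and ERBB2 fell in shTRMT6 cells, none rose, and EGFR, TGFA and ERRFI1 did not pass. Among all tested genes 35.4% passed, 16.1% lower and 19.3% higher. The groups did not overlap for 3 of the 6 tested members, HBEGF, ERBB3 and ERRFI1, against 48.3% of all tested genes. AREG was below the level for testing and was higher in every shTRMT6 library, and EREG and NRG1 were listed at 0 throughout.

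**Figure D1:**
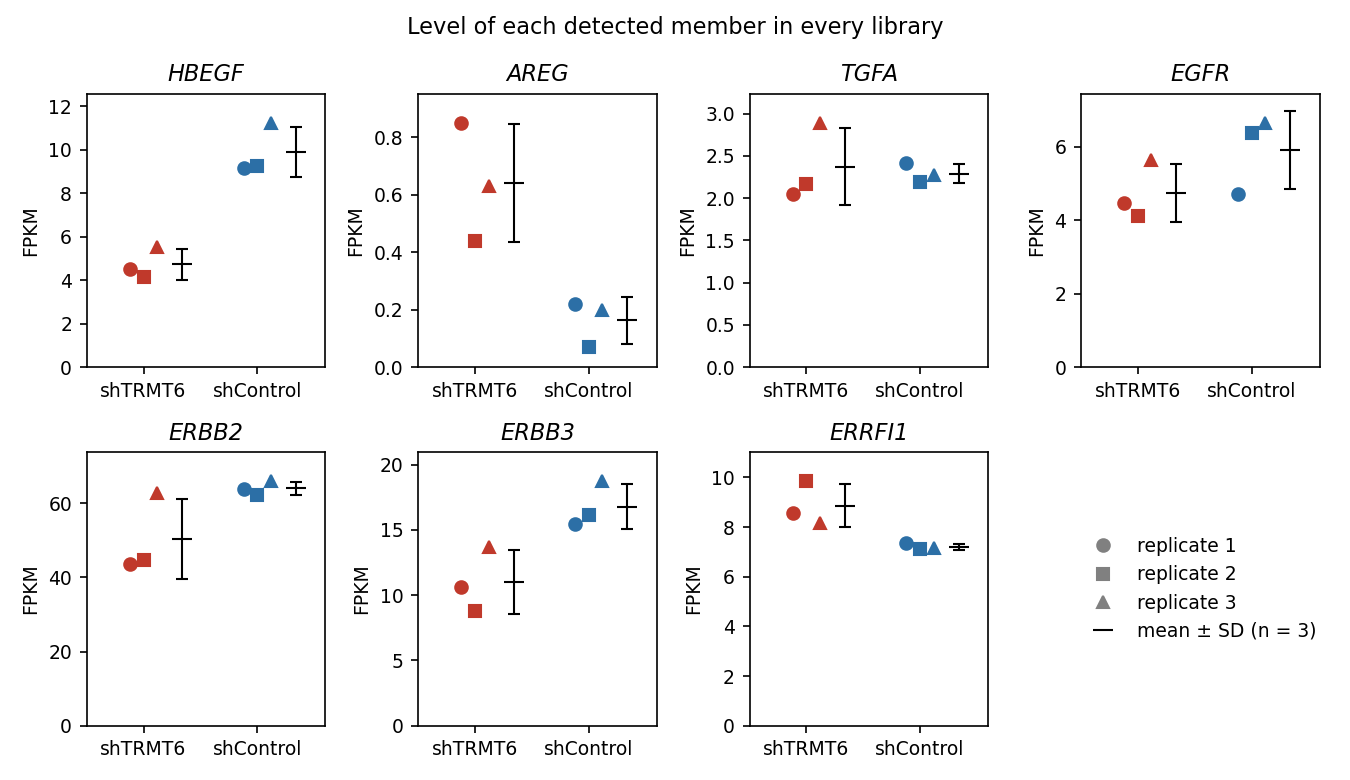
FPKM (vertical axes, from 0) of the 7 members above 0, in the shTRMT6 (red) and shControl (blue) libraries. Each symbol is 1 library, its shape gives the replicate number, and the bar to the right is the mean ± SD of 3 libraries. The groups are separate for HBEGF, AREG, ERBB3 and ERRFI1 and overlap for TGFA, EGFR and ERBB2, where shTRMT6 replicate 3 reaches 62.77 FPKM.

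HBEGF (ENSG00000113070, chromosome 5, bases 140332843 to 140346631 on the minus strand, GRCh38) encodes heparin-binding EGF, a ligand of EGFR and ERBB4 that is also a known early target of ERK signalling. It read 4.52, 4.16 and 5.53 FPKM in shTRMT6 replicates 1 to 3, against 9.17, 9.27 and 11.24 FPKM in shControl. The highest shTRMT6 library was well below the lowest shControl library. The means were 4.74 ± 0.710 FPKM in shTRMT6 and 9.89 ± 1.17 FPKM in shControl (SD, n = 3 each), 2.09-fold lower. On the log2(FPKM + 1) scale the log2 fold change was -0.93 (SE 0.13, adjusted p = 0.000255 by limma, lower in 3 of 3 pairs). Over 17 alternative settings the adjusted p ran from 5.84e-08 to 0.008.

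The promoters of HBEGF, AREG and ERBB2 (250 bases before to 50 after the annotated start, RefSeq, GRCh38.p14) are shown for the ligand that fell, the ligand that was higher and the most abundant receptor; no sequence is shown for ERBB3. Capitals mark matches on either strand to the AP-1 site TGANTCA, the cyclic AMP response element TGACGTCA, the GC box GGGCGG, the EGR1 site GCGNGGGCG or the TATA box TATAAA.
HBEGF, chr5:140346554-140346853, minus strand: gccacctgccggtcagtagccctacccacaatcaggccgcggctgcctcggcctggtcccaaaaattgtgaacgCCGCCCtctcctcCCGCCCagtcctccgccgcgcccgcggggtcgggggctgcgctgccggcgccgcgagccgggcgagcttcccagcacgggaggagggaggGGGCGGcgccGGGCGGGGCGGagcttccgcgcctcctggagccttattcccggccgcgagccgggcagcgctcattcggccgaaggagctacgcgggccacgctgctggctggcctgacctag
AREG, chr4:74444886-74445185, plus strand: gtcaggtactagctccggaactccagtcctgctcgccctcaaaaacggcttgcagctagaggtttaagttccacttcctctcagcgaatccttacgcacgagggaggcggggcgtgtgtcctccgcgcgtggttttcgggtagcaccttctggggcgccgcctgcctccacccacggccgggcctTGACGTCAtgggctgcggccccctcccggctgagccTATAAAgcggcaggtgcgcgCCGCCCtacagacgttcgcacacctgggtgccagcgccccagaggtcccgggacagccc
ERBB2, chr17:39687844-39688143, plus strand: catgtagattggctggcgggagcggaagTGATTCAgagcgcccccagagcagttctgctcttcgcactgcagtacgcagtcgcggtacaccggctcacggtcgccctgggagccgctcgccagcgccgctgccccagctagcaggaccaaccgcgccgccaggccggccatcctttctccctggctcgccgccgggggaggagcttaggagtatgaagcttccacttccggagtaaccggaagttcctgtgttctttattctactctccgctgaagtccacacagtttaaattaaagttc
HBEGF holds 5 GC boxes, of which a pair overlap by 1 base, and none of the other 4 motifs. AREG holds 1 cyclic AMP response element, 1 TATA box and 1 GC box. ERBB2 holds 1 AP-1 site and none of the other 4. Of all 35116 promoter windows, 45% hold a GC box, 11.5% a TATA box, 9.43% an EGR1 site, 7.71% an AP-1 site and 1.85% a cyclic AMP response element. These matches describe the letters of the windows only.

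TGFA (ENSG00000163235, chromosome 2, bases 70447280 to 70554193, minus strand) encodes transforming growth factor alpha, a ligand of EGFR alone. It read 2.05, 2.17 and 2.89 FPKM in shTRMT6 and 2.41, 2.19 and 2.27 FPKM in shControl. The groups overlapped, with shTRMT6 replicate 3 the highest and replicate 1 the lowest of all 6. The log2 fold change was 0.03 with a 95% interval of -0.26 to 0.31 (SE 0.13, limma adjusted p = 0.896), and its sign turned with quantile normalization and with a correction for GC content. The ratio of HBEGF to TGFA was 2.205, 1.92 and 1.91 in shTRMT6 libraries and 3.81, 4.23 and 4.95 in shControl libraries. The 2 ligands that reached the level for testing therefore stood closer together in shTRMT6 cells, with no overlap between the groups.

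AREG (ENSG00000109321, chromosome 4, bases 74445134 to 74455009, plus strand) encodes amphiregulin, a low-affinity ligand of EGFR. It read 0.85, 0.44 and 0.63 FPKM in shTRMT6 replicates 1 to 3, against 0.22, 0.07 and 0.20 FPKM in shControl. Every shTRMT6 library was above every shControl library, the opposite direction to HBEGF. From the estimated depth and an annotated transcript of 1240 bases, these values stand for about 9.8 to 21.1 fragments in shTRMT6 libraries and about 2.0 to 7.0 fragments in shControl libraries. The means were 0.64 ± 0.205 FPKM in shTRMT6 and 0.163 ± 0.0814 FPKM in shControl (SD, n = 3 each), a ratio of 3.92. Fitted with all 15015 genes above 0 in any library, AREG had a log2 fold change of 0.49 (SE 0.10; adjusted p = 0.018 by limma), on a scale that understates the change of low genes. Older genome builds carry a near-identical copy of AREG, and the authors' build was not given in the sources used here. Of the 20289 gene IDs, 20171 have a transcript in GENCODE release 29, which is on GRCh38. Whether fragments were lost to such a copy was not tested.

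EREG (ENSG00000124882, chromosome 4, bases 74365143 to 74388751), which encodes epiregulin and lies beside AREG, was listed at 0 in all 6 libraries. So was NRG1 (ENSG00000157168, chromosome 8), which encodes neuregulin 1, a ligand of ERBB3 and ERBB4. The other ligands were close to 0 as well. BTC, which encodes betacellulin, read 0.28, 0.14 and 0.16 FPKM in shTRMT6 and 0.16, 0.15 and 0.33 FPKM in shControl. NRG4, a ligand of ERBB4, was at most 0.05 FPKM in shTRMT6 and 0.08 FPKM in shControl. EGF, EPGN and NRG2 did not exceed 0.05 FPKM in any library, and NRG3 was listed at 0 in all. HBEGF and TGFA were therefore the 2 of the 11 ligand genes that averaged 1 FPKM or more.

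ERBB2 (ENSG00000141736, chromosome 17, bases 39687914 to 39730426, plus strand) had the highest level of the receptors. It read 43.63, 44.74 and 62.77 FPKM in shTRMT6 replicates 1 to 3, against 63.82, 62.31 and 65.94 FPKM in shControl. Replicates 1 and 2 of shTRMT6 were far below every shControl library, whereas replicate 3 lay within the shControl range. The means were 50.4 ± 10.7 FPKM in shTRMT6 and 64.0 ± 1.82 FPKM in shControl (SD, n = 3 each), 1.27-fold lower. On the log2(FPKM + 1) scale the log2 fold change was -0.36 (SE 0.13, adjusted p = 0.0413 by limma, lower in 3 of 3 pairs). The call ended without shTRMT6 replicate 1 (adjusted p = 0.184) or 2 (0.153) and without shControl replicate 1 (0.0741), 2 (0.0595) or 3 (0.084), and the fold was larger without shTRMT6 replicate 3 (-0.52, adjusted p = 0.00237). ERBB2 has a transcript GC content of 59.3%, and the libraries differed in how levels followed GC content: per 10 points, the deviation from the mean of all 6 was -0.15 to -0.02 in shTRMT6, 0.22 in shControl replicate 1 and -0.0046 and 0.03 in the other shControl libraries. With that trend removed, the log2 fold change was -0.22 (adjusted p = 0.178); with the replicate number as a block as well it was -0.22 (adjusted p = 0.0208). The exons of ERBB2 share 5.53% of their bases with MIEN1 and 1.88% with PGAP3 on the opposite strand, and the strand setting was not given in the sources used here. MIEN1 read 27.46 to 32.59 FPKM in shTRMT6 and 28.49 to 36.06 FPKM in shControl, a difference that did not pass (log2 fold change -0.12, adjusted p = 0.437).

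ERBB3 (ENSG00000065361, chromosome 12, bases 56076799 to 56103505, plus strand) was lower in shTRMT6 in all 3 pairs of libraries. It read 10.63, 8.79 and 13.66 FPKM in shTRMT6 and 15.42, 16.15 and 18.72 FPKM in shControl. The groups did not overlap, and replicate 3 was the highest library in both. The means were 11.0 ± 2.46 FPKM in shTRMT6 and 16.8 ± 1.73 FPKM in shControl (SD, n = 3 each), 1.52-fold lower. On the log2(FPKM + 1) scale the log2 fold change was -0.58 (SE 0.14, adjusted p = 0.00715 by limma), and -0.51 (adjusted p = 0.0149) with the GC trend removed. Its adjusted p stayed under the threshold in all 17 alternatives, at most 0.0474.

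EGFR (ENSG00000146648, chromosome 7, bases 55019021 to 55211628, plus strand), the receptor for HBEGF, TGFA and AREG, did not pass the test. It read 4.46, 4.11 and 5.63 FPKM in shTRMT6 replicates 1 to 3, against 4.70, 6.38 and 6.65 FPKM in shControl. The groups overlapped, since shControl replicate 1 lay below shTRMT6 replicate 3. The means were 4.73 ± 0.796 FPKM in shTRMT6 and 5.91 ± 1.06 FPKM in shControl (SD, n = 3 each). The log2 fold change was -0.27 with a 95% interval of -0.58 to 0.05 (SE 0.14, limma adjusted p = 0.168), which does not exclude a fall of the size seen for ERBB2. It passed without shControl replicate 1 (-0.40, adjusted p = 0.0371) and with the GC trend removed and the replicate block together (-0.31, adjusted p = 0.0216). ERBB4, the fourth receptor, was listed at 0 in all 6 libraries.

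The summed level of EGFR, ERBB2 and ERBB3 was 58.7, 57.6 and 82.1 FPKM in shTRMT6 and 83.9, 84.8 and 91.3 FPKM in shControl. The groups did not overlap, by a narrow margin through shTRMT6 replicate 3. ERBB2 supplied 74.3 to 77.6% of that sum in shTRMT6 libraries and 72.2 to 76.0% in shControl libraries, so its share overlapped between groups. The ratio of ERBB3 to EGFR was 2.38, 2.14 and 2.43 in shTRMT6 and 3.28, 2.53 and 2.82 in shControl, without overlap.

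ERRFI1 (ENSG00000116285, chromosome 1, bases 8004404 to 8026308, minus strand) encodes MIG6, a cytosolic protein that ERBB signalling induces and that binds and inhibits the receptor kinases. It read 8.55, 9.84 and 8.18 FPKM in shTRMT6 and 7.35, 7.13 and 7.16 FPKM in shControl. Every shTRMT6 library was above every shControl library, but the difference did not pass the test. The means were 8.86 ± 0.871 FPKM in shTRMT6 and 7.21 ± 0.119 FPKM in shControl (SD, n = 3 each). The log2 fold change was 0.26 with a 95% interval of 0.02 to 0.50 (SE 0.11, limma adjusted p = 0.0847). ERRFI1 has a low GC content of 43.4%, and with the GC trend removed the value was 0.09 (adjusted p = 0.47) and the groups overlapped. The ratio of HBEGF to ERRFI1 was 0.423 to 0.676 in shTRMT6 libraries and 1.25 to 1.57 in shControl libraries.

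**Figure D2:**
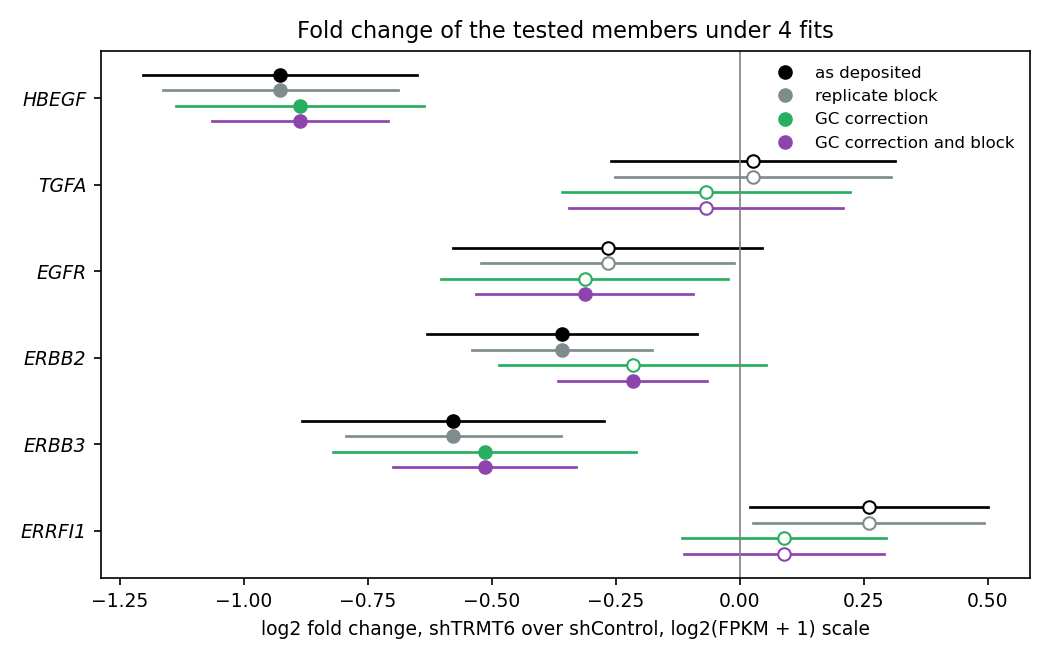
Log2 fold change of shTRMT6 over shControl (horizontal axis, log2(FPKM + 1) scale) of the 6 tested members under 4 limma fits; lines are 95% intervals and filled points have an adjusted p under 0.05. HBEGF and ERBB3 are filled in every fit, ERBB2 is open with the GC correction alone (-0.22), and EGFR is filled with the GC correction and the block together (-0.31).

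By level, the order in shTRMT6 cells was ERBB2, ERBB3, ERRFI1, HBEGF, EGFR, TGFA and AREG. The libraries of ERBB3 and ERRFI1 overlapped, as did those of HBEGF and EGFR, whose means were 4.74 and 4.73 FPKM. In shControl cells the order was ERBB2, ERBB3, HBEGF, ERRFI1, EGFR, TGFA and AREG, and no neighbours overlapped. HBEGF thus stood below ERRFI1 in every shTRMT6 library and above it in every shControl library.

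Within libraries of the same replicate number, HBEGF had shTRMT6 over shControl ratios of 0.493, 0.449 and 0.492. ERBB3 had ratios of 0.689, 0.544 and 0.730, and ERBB2 of 0.684, 0.718 and 0.952. EGFR was below 1 in all 3 pairs as well, at 0.949, 0.644 and 0.847. The ratio of HBEGF thus varied little between pairs, whereas that of ERBB2 came close to 1 in the third. ERRFI1 was above 1 in every pair (1.16, 1.38 and 1.14), AREG was at 3.86, 6.29 and 3.15, and TGFA lay on both sides (0.851, 0.991 and 1.27). HBEGF, EGFR, ERBB2 and ERBB3 each had replicate 3 as the highest library of both groups, a pattern held by 13.9% of all tested genes.

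**Figure D3:**
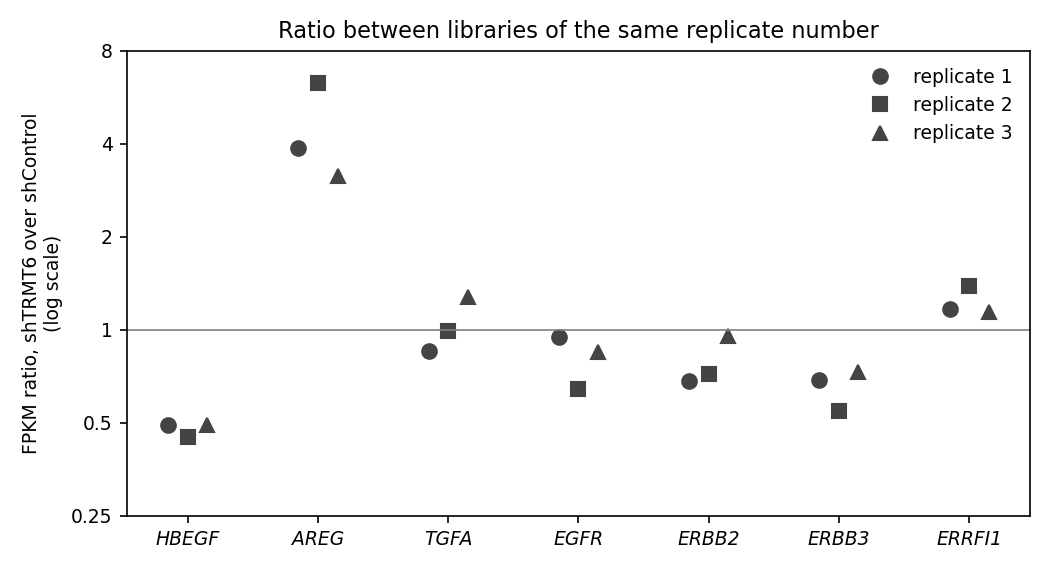
Ratio of FPKM in shTRMT6 over shControl (vertical axis, log scale) between libraries of the same replicate number, for the 7 members above 0; each symbol is 1 pair and the line marks a ratio of 1. HBEGF sits between 0.449 and 0.493 in all pairs, and AREG at 3.15 or above.

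The genes most like the 3 members that fell were taken as the 2 with the highest Pearson correlation of log2(FPKM + 1) over the 6 libraries, a measure that includes the difference between the groups and carries no test. For HBEGF the closest was GALNT2 (r = 0.9992), a mucin-type glycosyltransferase, which read 11.75, 11.23 and 14.35 FPKM in shTRMT6 and 24.93, 25.19 and 30.08 FPKM in shControl. For ERBB3 they were C1RL (0.9978) and PAQR7 (0.9964), a membrane progestin receptor. For ERBB2 they were LENG8 (0.9968) and HSPA12A (0.9928). Many genes were nearly as close: 487 tested genes had an r of at least 0.95 with HBEGF, 284 with ERBB3 and 105 with ERBB2.

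Most tested genes of the rest of the pathway did not pass, and in the lists below the share that passed is set beside the 35.4% of all tested genes (19.3% higher and 16.1% lower). Of 10 tested genes that cut or carry the ligands, 1 rose and 1 fell (20%); the median log2 fold change was -0.19, against 0.02 over all tested genes. NRDC, nardilysin, which enhances the shedding of HB-EGF, rose to 35.19, 37.29 and 31.87 FPKM in shTRMT6, against 17.45, 21.58 and 20.20 FPKM in shControl (log2 fold change 0.79, SE 0.11, limma adjusted p = 0.000255). CD9, the tetraspanin that associates with pro-HB-EGF, fell to 168.8, 154.8 and 204.4 FPKM in shTRMT6, against 221.6, 252.8 and 277.1 FPKM in shControl (log2 fold change -0.51, SE 0.12, adjusted p = 0.00485). Neither gene's groups overlapped. ADAM17, the main protease of these ligands, did not pass (-0.30, adjusted p = 0.151). With the replicate block 4 genes of this list were lower, among them ADAM17 and ADAM9, and without shTRMT6 replicate 3 there were 4 lower and without shControl replicate 1 there were 3.

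Of 36 tested adaptors and effectors, 6 rose and 5 fell (30.6%), with a median of -0.0071. The adaptors NCK1 and SHC1 rose 1.74-fold and 1.54-fold by mean FPKM. Their limma log2 fold changes were 0.70 (SE 0.12, adjusted p = 0.00106) and 0.62 (SE 0.09, adjusted p = 0.000293). SHC1, which links phosphorylated receptors to GRB2, read 360.5 to 382.7 FPKM in shTRMT6 and 227.9 to 257 FPKM in shControl. PIK3R3, a regulatory subunit of PI3-kinase, rose 1.77-fold (adjusted p = 0.000836) and the phosphatase PTPN11, SHP2, 1.47-fold (adjusted p = 0.0122; 0.0728 with low genes kept in the fit). The kinases ARAF, ABL1 and PAK1, the phospholipase PLCG1 and PIK3R2 were the genes that fell, which were named after their values were seen. With the replicate block 9 were higher and 8 lower; the count of lower genes was 2 without shTRMT6 replicate 1 or 2 and 3 without shControl replicate 2.

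Of 30 tested negative regulators, ERRFI1 included, 5 rose and 5 fell (33.3%; median 0.09). With the GC trend removed 5 were higher and 7 lower and the median was -0.03, and with the replicate block 7 were higher and 5 lower. The 2 CBL ubiquitin ligases that were tested, which mark activated receptors for degradation, moved apart. CBLB rose to 37.58, 33.90 and 32.26 FPKM in shTRMT6, against 20.65, 20.62 and 19.52 FPKM in shControl (log2 fold change 0.74, SE 0.10, limma adjusted p = 0.000199). CBL, named after its values were seen, read 9.46, 8.79 and 8.80 FPKM in shTRMT6 and 12.07, 13.31 and 12.73 FPKM in shControl, and fell by 0.45 (SE 0.10, adjusted p = 0.00514). LRIG1, a membrane protein that promotes loss of ERBB receptors, fell 1.54-fold (-0.52, adjusted p = 0.00441). Feedback inhibitors of ERK signalling also moved apart. SPRY2 and DUSP6 rose 1.55-fold and 1.42-fold (adjusted p = 0.00107 and 0.0018 by limma). SPRY4 and SPRED2, named after their values were seen, fell (log2 fold change -0.38 and -0.26, adjusted p = 0.00526 and 0.0487). The call of SPRED2 ended without shTRMT6 replicate 3. SPRY1, SPRED1 and DUSP5 did not pass.

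The last list held early response genes and other genes linked to ERK signalling, called early response genes for short. Of its 33 tested genes, 7 rose and 10 fell (51.5%, median -0.08). Like the other lists, it was chosen with earlier results of these data known, so this share is not an independent result. The balance and the median's sign turned with the GC trend removed (10 higher and 9 lower, median 0.03), and with the block as well 12 were higher and 11 lower; the block alone gave 9 higher and 13 lower. EMP1, an epithelial membrane protein, had the largest fold of the list, reading 5.71 ± 1.22 FPKM in shTRMT6 and 19.0 ± 4.49 FPKM in shControl (SD, n = 3 each; log2 fold change -1.56, SE 0.17, limma adjusted p = 5.33e-05). The urokinase receptor PLAUR fell 1.80-fold (-0.84, adjusted p = 7.62e-05) and the transcription factor EGR1 1.83-fold (-0.83, adjusted p = 0.000173). EGR1 read 17.07, 13.71 and 15.35 FPKM in shTRMT6 and 30.02, 26.18 and 28.03 FPKM in shControl, without overlap. VGF, a secreted neuropeptide precursor, rose 1.86-fold (0.77, adjusted p = 0.000541). The count of genes that rose was 3 without shTRMT6 replicate 1.

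**Figure D4:**
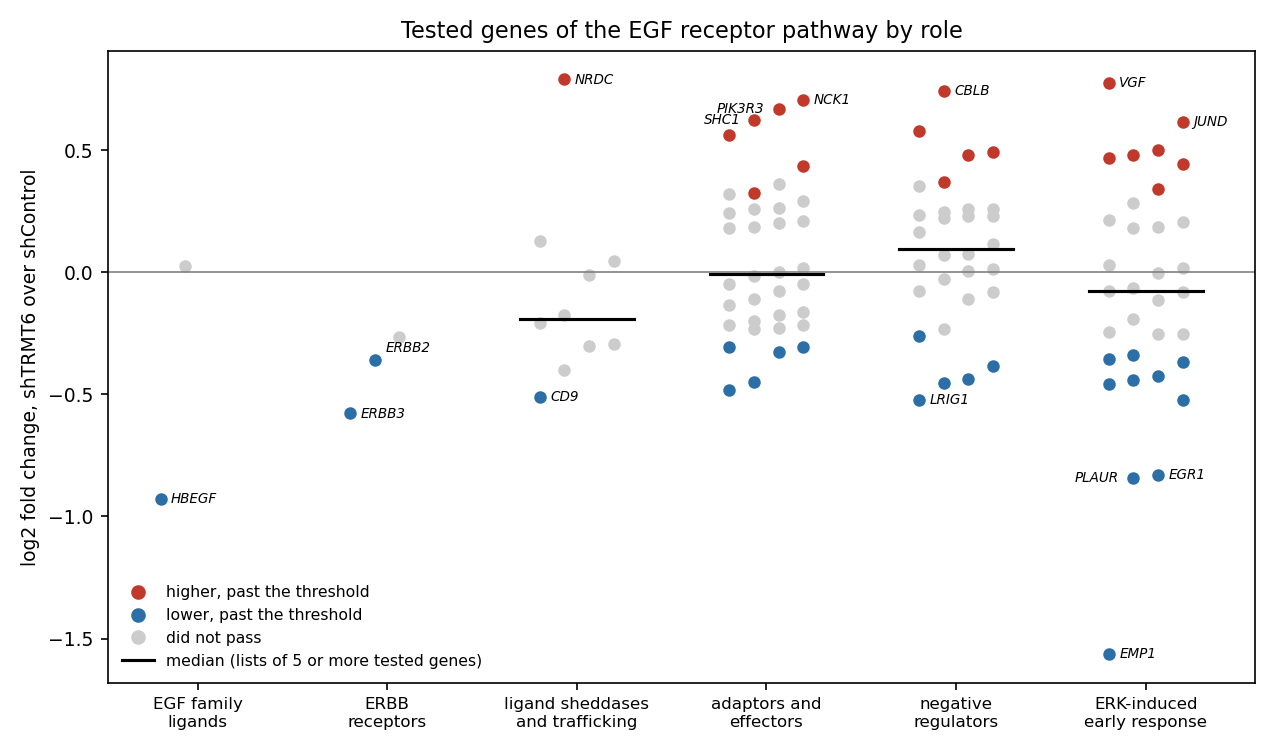
Log2 fold change of shTRMT6 over shControl (vertical axis) of every tested gene of the pathway, 1 point a gene, in 6 columns by role; red and blue points passed the threshold and black lines are medians. HBEGF, ERBB2 and ERBB3 are the ligand and receptor genes that passed, and the other 4 columns hold genes on both sides of 0, most of them not past the threshold in 3 of the 4.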

How the data were processed

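Per the file headers, the authors deposited FPKM values, 1 per gene and library. The tools listed, per the submitters' processing notes, are HISAT2, RSEM, StringTie 1.3.1, Bowtie2 2.2.8 and fastp 0.18.0, with no roles; genome build, annotation and strand setting are not given in the sources used here. Groups and replicate numbers came from the sample titles, and columns, whose names abbreviate the groups differently, were matched by group and number. Members and lists were chosen with earlier results of these data known.

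FPKM are not counts, so limma 3.58.1 (R 4.3.3) was run two-sided on log2(FPKM + 1). The fit covered genes averaging 1 FPKM or more, with the variance prior following the mean level. A run on simulated data with 200 changed genes and independent noise served only as a check of the code. It held neither the replicate pairing nor the GC trend of these libraries. Fold changes on this scale understate the change of low genes. Depth was estimated from the steps of FPKM times length in genes with 1 annotated transcript of at most 1000 bases and is rough. Lengths, GC content and gene coordinates came from GENCODE release 29 (GRCh38). The GC correction removed each library's smooth trend on the GC content of the longest coding transcript.

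Named genes were the 9 members, TRMT6, the other ligands and receptors, up to 4 passing genes with the largest fold from each other list, and the 2 genes most like each of 3 members. A gene that meets this rule is not reported here. Deviations from the group mean correlated across genes at 0.21, 0.36 and 0.17 between libraries of the same replicate number and at -0.29 to 0.09 between others. Ratios are therefore given between libraries of the same number, called pairs, although no label explains the numbers. The main limma fit held the group alone, so its SE and p-values ignore this pairing. The replicate block was an alternative fit, given where it changes a member's call or where a list's counts differ. The alternatives also included other pseudocounts, filters, scalings and variance priors and each library left out in turn. Sequences for 7 of the 9 members were matched by symbol in the RefSeq promoter table. Exon overlaps are from GENCODE.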

Additional observations from a re-analysis of the deposited data

How the results depend on the processing

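HBEGF, ERBB3, ERRFI1 and TRMT6 kept their direction and their side of the threshold in all 17 alternatives. HBEGF ran from -1.02 to -0.84, ERBB3 from -0.73 to -0.44 and ERRFI1 from 0.19 to 0.31 when 1 library was left out; EGFR ran from -0.40 to -0.19, ERBB2 from -0.52 to -0.27, TGFA from -0.0809 to 0.0946 and TRMT6 from -2.91 to -2.71. ERBB2 no longer passed with no filter on low values (-0.36, adjusted p = 0.118), quantile normalization (-0.33, 0.0808), no trend in the variance prior (-0.36, 0.06) or the GC correction (-0.22, 0.178). EGFR passed with the GC correction and replicate block (-0.31). TGFA, which was not tested at a mean of at least 5 FPKM and did not pass in the other 16 alternatives, turned negative with quantile normalization (-0.0229), with the GC correction with or without the block (-0.0683) and without shTRMT6 replicate 3 (-0.0809). The difference of AREG was 0.49, and 1.51 or 0.77 with a pseudocount of 0.1 or 0.5; it ran from 0.40 to 0.58 when 1 library was left out.

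The replicate block changed no call of a member; the fold change of ERBB2 stayed at -0.36 (adjusted p = 0.00121) and that of EGFR at -0.27 (adjusted p = 0.0798). Over all genes 2042 were higher and 1704 lower; leaving out 1 library gave 1295 to 2027 higher and 1112 to 1731 lower, and the GC correction with the block 2637 lower. Lower genes among the sheddases numbered 2 with quantile or median-of-ratios scaling, 3 with the GC correction and 4 with the block, with or without that correction, and 1 to 4 with 1 library left out; 2 were higher with the correction and block. Among adaptors and effectors 3 were higher with no filter, and 8 or 9 lower with the block alone or with the GC correction; 2 to 5 were lower with 1 library left out. Among early response genes 4 were higher with no filter, 12 (with 11 lower) with the GC correction and block and 3 to 7 with 1 library left out. Among negative regulators the median turned negative (-0.03) with the GC correction, and 4 to 6 were higher and 4 to 6 lower with 1 library left out. Where no cause is given, the cause was not tested. AREG rests on few fragments, which limits the precision of its ratio.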
